A study of Mus musculus with 202 samples.

Results

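The 10 mRNAs described here encode the machinery that holds a mouse egg at metaphase of meiosis II (MII) and releases it at fertilisation: Mos, Wee2, Fbxo43, Ccnb1, Ccnb2, Ccnb3, Cdk1, Cdc20, Fzr1 and Cdc25b. They were chosen by symbol from the 23995 gene symbols of the count table, and all 10 had a line. Their levels were read in 157 of 202 single oocytes, those with at least 100000 gene counts and 4000 genes with a count. The oocytes came from C57Bl/6J mice of 3 generations, F1, F2 and F3, and each library was 1 MII oocyte prepared by Smart-seq2, a full-length method for single cells. Groups were set by the diet and hormone of the founding F0 female. The diet was control (CD) or high in fat and sugar (HFHS), and the hormone was the androgen dihydrotestosterone (DHT) or its vehicle (Veh).

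In F1, 10 CD+Veh, 8 CD+DHT, 14 HFHS+Veh and 13 HFHS+DHT oocytes were kept. In F2 there were 16 CD+Veh, 25 CD+DHT, 20 HFHS+Veh and 5 HFHS+DHT oocytes, and in F3 20 CD+Veh, 13 CD+DHT and 13 HFHS+Veh. In 4 groups the title carries a number before a point, which was read as the animal. By that reading F2 CD+Veh had 4 animals, F2 CD+DHT 5 and F2 HFHS+Veh 4, and F3 HFHS+Veh had 2 with kept oocytes. The other groups name no animal, so they entered no test. Characteristics contradicted the title in 36 of the 202 samples, in the hormone for F1 HFHS+Veh and F2 HFHS+DHT and in the generation for 8 oocytes each of F2 and F3 HFHS+Veh. Groups follow the titles.

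The arrest works as a balance. CDK1 bound to a B-type cyclin drives the cell into metaphase, and the anaphase-promoting complex ends metaphase by marking the cyclins for destruction. In the egg the MOS kinase, acting through the MAPK cascade, and EMI2, the product of Fbxo43, keep that complex inactive until sperm entry raises calcium. Full-grown oocytes make almost no new RNA, so these proteins come from stored mRNAs whose translation is set by their poly(A) tails.

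The cytoplasmic polyadenylation element (CPE), a short motif near the 3′ end, is a signal for lengthening such a tail. Its spellings TTTTAT and TTTTAAT were searched on the mRNA strand in the last 100 bases of the principal GENCODE vM21 transcript (GRCm38) of each member. Wee2, Cdc20 and Ccnb3 held at least 1, that is 3 of the 10 members. For comparison, 17.9% of 19355 protein-coding genes with a 3′ UTR of at least that length held either spelling. Among the 4885 of them at a median of at least 10 CPM (gene counts scaled to 1000000 per oocyte) in these oocytes, 26.24% did. The 3′ UTR of Cdc20 is only 62 bases long and was searched whole, and its 2 CPE matches overlap by a single base. The polyadenylation hexamer, AATAAA or ATTAAA, was present in 9 of the 10, all but Fzr1. A match is a string of letters and was not tested as a site. Other spellings, other transcripts and bases further upstream were not searched. The 3′ UTR of Ccnb1 is 1028 bases long, that of Fbxo43 1584 and that of Mos 126. A member without a match in the window may therefore still have a CPE. Levels of Mos and Ccnb1 are compared by generation below. The CPE windows of the 3 members with a match, and the hexamer windows of Mos and Ccnb1, follow 5′ to 3′. The motif is in capitals.
Wee2, TTTTAAT, chr6:40466757-40466786 (GRCm38, plus strand): tttttaacataTTTTAATccagatcattgt
Wee2, TTTTAT, chr6:40466784-40466813 (GRCm38, plus strand): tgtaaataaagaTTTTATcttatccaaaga
Cdc20, TTTTAT, chr4:118432923-118432952 (GRCm38, minus strand): ttcctttcttgtTTTTATtttattttttct
Ccnb3, TTTTAT, chrX:6979702-6979731 (GRCm38, minus strand): tcttgaaattacTTTTATgaaagaagagaa
Mos, AATAAA, chr4:3870661-3870690 (GRCm38, minus strand): atatttttaggaAATAAAgttaccacgaac
Ccnb1, AATAAA, chr13:100778656-100778685 (GRCm38, minus strand): ctttatgttgctAATAAAcatagttttcga

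The libraries read as oocytes: 13 of 14 oocyte markers had a median of at least 10 CPM over the kept oocytes, the transcription factor Figla being the exception at 0. Kept libraries held 133654 to 16359078 gene counts. Median genes detected by group ran from 8227 to 10642.5 in F1, from 9184 to 10524.5 in F2 and from 7127 to 8227 in F3. Cumulus and granulosa transcripts, of the somatic cells around the oocyte, were summed over 32 markers. Their median was 492 to 1436 CPM by group in F1, 385 to 525 in F2 and 986 to 2617 in F3. F3 CD+Veh oocyte 21 stood apart, with 54804 CPM of these markers, 14.33% spike-in counts, 161 CPM of oocyte markers and no Mos, Cdk1 or Cdc20 count. The blood and immune list of 8 markers had a summed median of 0 to 5.76 CPM by group.

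Per length, in the authors' deposited RPKM, Ccnb1, the main mitotic B-type cyclin, had the highest median over all 157 oocytes. It stood at 418 RPKM, Mos at 368, Wee2 at 326 and Ccnb2 at 297. The anaphase-promoting complex activator Cdc20 followed at 115 RPKM and Fbxo43 at 68.5. Cdk1, the kinase that the cyclins activate, had only 23.5 RPKM, and the meiotic cyclin Ccnb3 5.56. Cdc25b, a phosphatase that activates CDK1 at meiotic resumption, had 1.69 RPKM, and Fzr1, the other activator of the anaphase-promoting complex, 1.38. Wee2, Fbxo43, Ccnb1 and Ccnb2 had a count in all 157 oocytes, Mos and Cdc20 in 156, Ccnb3 in 154, Cdk1 in 150, Fzr1 in 118 and Cdc25b in 115. The order differed by group: in F1 CD+Veh the highest median was that of Mos at 635 RPKM, above Ccnb1 at 397, and in F3 CD+Veh it was that of Ccnb1 at 847 RPKM, with Mos at 278. The neighbours Mos and Wee2, and Cdc25b and Fzr1, overlapped in every group.

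**Figure D1:**
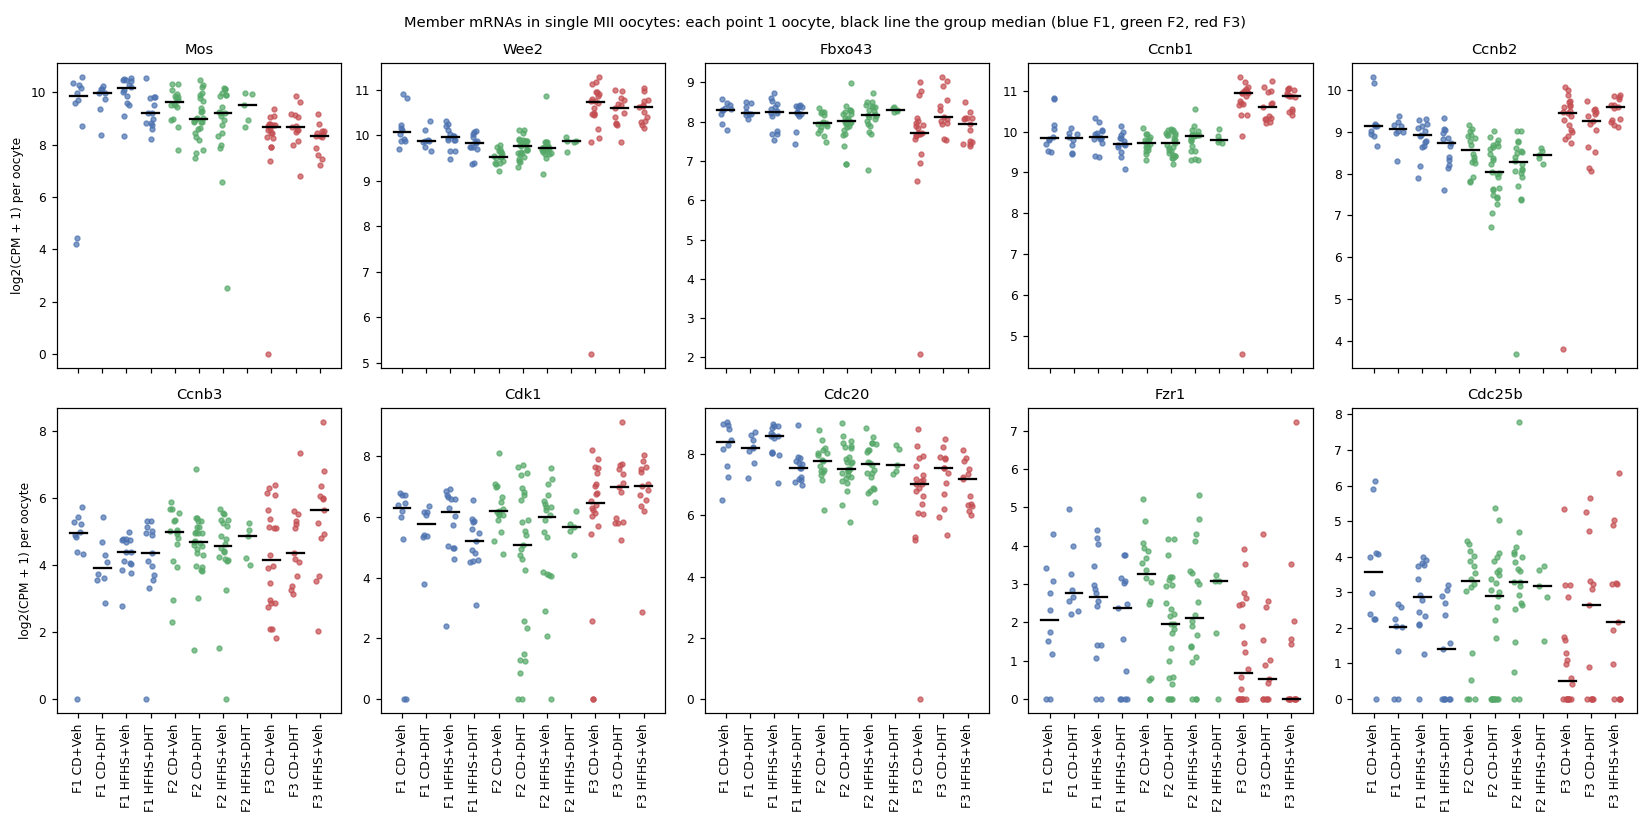
Level of each member mRNA as log2(CPM + 1) in 157 single oocytes over the 11 groups; points are oocytes and black lines group medians, with a separate vertical scale for each gene. Ccnb1, Wee2 and Ccnb2 sit higher and Mos lower in F3 (red), and single oocytes at the bottom of a panel include F3 CD+Veh oocyte 21.

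Among the B-type cyclins, Ccnb1 ran from 539 to 1793 CPM over the 111 oocytes of F1 and F2, with a median of 893 CPM. In the 45 F3 oocytes without oocyte 21 it ran from 950.5 to 2580 CPM, with a median of 1869. All 45 lay above the F1 and F2 median, and 25 lay above the highest F1 or F2 oocyte. Ccnb2, another mitotic cyclin, had a median of 395 CPM in F1 and F2 and 694 in F3. Of the 45 F3 oocytes, 42 lay above the F1 and F2 median. The 2 earlier generations differed, with Ccnb2 medians of 506 CPM in F1 and 325 in F2. The highest F1 oocyte, at 1274 CPM of Ccnb2, lay above all F3 oocytes. Ccnb3, which acts at the exit from meiosis I, had medians of 24.9 and 33.4 CPM and overlapped widely: 25 of 45 F3 oocytes lay above the F1 and F2 median.

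Wee2, the oocyte kinase that inhibits CDK1 and is needed for exit from MII, followed Ccnb1. Its median was 874 CPM in F1 and F2 and 1602 in F3, with 45 of 45 F3 oocytes above the F1 and F2 median and 10 above the F1 and F2 maximum. Within an oocyte, the median log2 ratio of Ccnb1 to Wee2 was 0.00 in F1 and F2 and 0.11 in F3. Cdk1 had a median of 57.6 CPM in F1 and F2 and 112 in F3, with 36 of 45 F3 oocytes above the F1 and F2 median.

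Mos, the kinase at the head of the arrest pathway, was on the other side. Its median was 724 CPM in F1 and F2 and 375 in F3, and 43 of 45 F3 oocytes lay below the F1 and F2 median. In F1 alone the Mos median was 892 CPM and in F2 alone 611 CPM. The median log2 ratio of Ccnb1 to Mos was 0.25 over the F1 and F2 oocytes and 2.23 over the F3 oocytes. Cdc20 had medians of 223 and 140 CPM, with 34 of 45 F3 oocytes below the F1 and F2 median. Taken apart, F1 and F2 had Cdc20 medians of 275 and 202 CPM. Fbxo43, whose product inhibits the complex that Cdc20 and Fzr1 activate, had closer medians, 293 and 246 CPM. Fzr1 had medians of 4.62 and 0.44 CPM and Cdc25b of 6.47 and 1.13, and at such levels many oocytes were at 0.

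**Figure D2:**
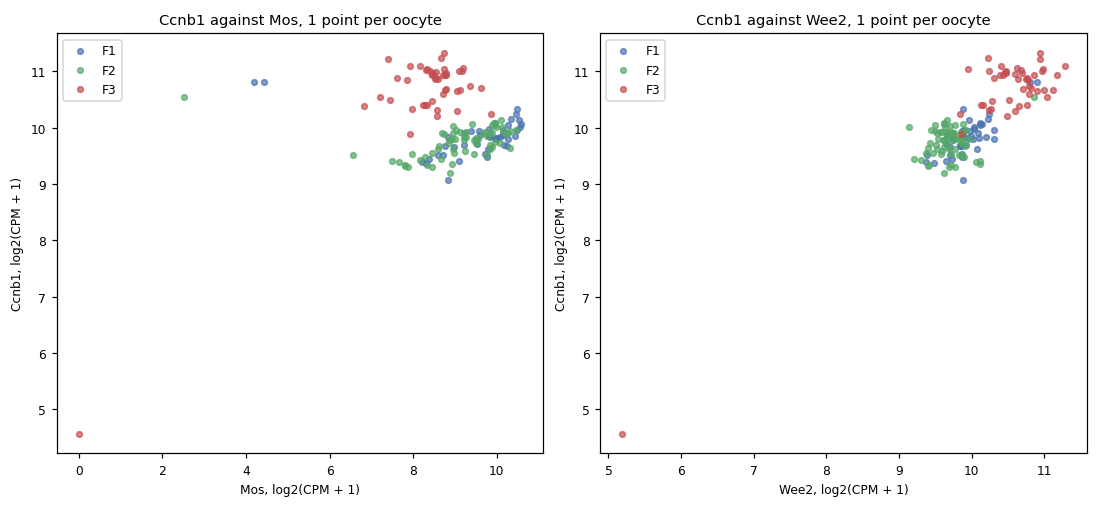
Ccnb1 against Mos (left) and against Wee2 (right), each as log2(CPM + 1), 1 point per oocyte, coloured by generation. F3 oocytes have higher Ccnb1 and Wee2 and lower Mos; 3 F1 and F2 oocytes with hardly any Mos lie at F3 levels of Ccnb1, and F3 CD+Veh oocyte 21 lies apart at the lower left.

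The controls alone showed the same contrast, in comparisons added after the levels had been seen and with no test, since F1 and F3 CD+Veh name no animals. Genes were counted as past 1.5-fold if their group medians differed by that ratio and reached 10 CPM in either group. Between F3 and F1 CD+Veh, 65.4% of 5833 genes were past it. Of 9 members reaching 10 CPM, Wee2 (1702 against 1070 CPM) and Ccnb1 (1956 against 917) were past it upward. Mos (402 against 917 CPM), Fbxo43 (209 against 316), Ccnb3 (16.6 against 29.9), Cdc20 (129 against 334) and Cdc25b (0.414 against 10.9) were past it downward. Between F3 and F2 CD+Veh the share was 68.1% of 5953 genes. There Wee2, Ccnb1 and Ccnb2 (700.5 against 379 CPM) were past it upward and Mos, Ccnb3 and Cdc20 downward, of 8 members counted. The Ccnb3 difference turned on few oocytes: without the 3 oocytes richest in cumulus markers, 2 of them F3 CD+Veh, its log2 ratio went from -0.84 to -0.20 against F1 and from -0.89 to -0.25 against F2, both short of the fold. With counts pooled over oocytes it was 0.01 against F2. With the mean of log2(CPM + 1), the log2 ratios of Wee2 (0.23) and Ccnb1 (0.51) against F1 were short of the fold. Between F2 and F1 CD+Veh, 20.7% of 6066 genes were past the fold, and of 9 members only Cdc20 was (221 against 334 CPM). With the mean of log2(CPM + 1), Mos (0.71) and Cdk1 (1.25) were past it upward. Their medians were 790 against 917 CPM for Mos and 71.6 against 77.2 CPM for Cdk1. The F1 mean includes oocytes 7 and 8, at 17.35 and 20.7 CPM of Mos with no Cdk1 count. Their part was not tested. A share near that of all genes is not a result about the members. The all-gene median log2 ratio was -0.49 between F3 and F1 and -0.56 between F3 and F2.

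The generation contrast with animals in both groups was HFHS+Veh, with 2 F3 animals and 4 F2 animals. It was also added after the levels had been seen. Counts were summed over the oocytes of an animal. They were fitted for all genes by edgeR's quasi-likelihood test, with Benjamini-Hochberg adjustment over all genes and a threshold of 0.05. The F2 CD+Veh and CD+DHT animals were in the same fit. Standard errors and p-values therefore rest on a spread shared over these groups, not on the 2 F3 and 4 F2 HFHS+Veh animals alone. Of 13314 genes, 24.6% passed, 9.91% as higher in F3 and 14.7% as lower. The calls split into 1319 higher and 1958 lower, and with limma-voom into 931 higher and 480 lower. Of the 10 members 4 passed, all higher, and 0 passed as lower. Generation and any batch of the libraries cannot be told apart.

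Ccnb1 stood at 1719 CPM in F3 animal 22 and 1871 in animal 26, and at 954, 1024, 658 and 936 CPM in F2 animals 4, 5, 10 and 19. Both F3 animals lay above the 4 F2 animals, and the log2 fold was 1.21 (SE 0.19, adjusted p = 0.000180 by edgeR). Wee2 stood at 1691 and 1511 CPM in the F3 animals and at 878, 742, 857 and 834 CPM in the F2 animals. It rose by a log2 fold of 1.13 (SE 0.23, adjusted p = 0.00134 by edgeR). Ccnb2 stood at 829.3 and 680 CPM against 389, 280.2, 300 and 443 CPM, again without overlap (log2 fold 1.28, SE 0.34, adjusted p = 0.0105 by edgeR). Ccnb3 stood at 60.2 and 64.8 CPM against 28.6, 19.6, 38.2 and 25.9 CPM (log2 fold 1.30, SE 0.35, adjusted p = 0.0101 by edgeR). In animal 26 a single oocyte, number 5 in its title, had 310 CPM of Ccnb3, while the median of that animal's 8 oocytes was 31.8 CPM.

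The other members did not pass. Cdk1 stood at 139 and 148 CPM in the F3 animals and at 98.5, 82.0, 20.03 and 71.9 CPM in the F2 animals, so the groups did not overlap, but the adjusted p was 0.133 by edgeR (log2 fold 1.32, SE 0.62). Mos stood at 228 and 358 CPM against 647, 853, 264 and 832 CPM (log2 fold -0.92, SE 0.35, adjusted p = 0.0635 by edgeR). F2 animal 10 lay between the F3 animals for Mos, and its 5 oocytes all carry F3 in their characteristics. Without it Mos passed as lower (log2 fold -1.14, adjusted p = 0.00896 by edgeR), and it also passed with the stricter oocyte filter (adjusted p = 0.0277 by edgeR). Mos did not pass by limma-voom (adjusted p = 0.169) or DESeq2 (0.0668), or by edgeR with DESeq2-type size factors (0.105). Nor did it pass by edgeR without F2 animal 4 (adjusted p = 0.0768), 5 (0.111) or 19 (0.152). Without F3 animal 22 or 26, each leaving 1 F3 animal, the log2 fold of Mos was -0.67 and -1.23. Leaving out all oocytes with contradictory labels removes animal 10 too and leaves F3 animal 26 alone. The log2 fold of Mos was then -0.99. The log2 fold was -0.40 for Cdc20, -0.09 for Fbxo43, 0.25 for Cdc25b and 1.35 for Fzr1, with adjusted p of 0.401, 0.780, 0.838 and 0.269 by edgeR. Fbxo43 changed sign with DESeq2-type size factors (0.07). The highest Fzr1 level was 150.1 CPM, in oocyte 7 of animal 26: the other F3 animal had 0.955 CPM, and without animal 26 the log2 fold was -2.46. In all, 5 of the 10 members had animals of the groups apart, the 4 called and Cdk1, beside 43.2% of all genes tested.

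The median log2 fold of all genes was -0.50 with the TMM scaling used and -0.35 with DESeq2-type size factors. Relative to that median, the log2 fold of Ccnb1 was 1.71 by the first and 1.72 by the second. It was 1.62 and 1.65 for Wee2, 1.78 and 1.80 for Ccnb2, and 1.79 and 1.82 for Ccnb3. For Mos it was -0.42 by both. Leaving out F3 animal 22, whose characteristics say F2, ended the calls of Ccnb2 (adjusted p = 0.127 by edgeR) and Ccnb3 (0.0605) and left those of Ccnb1 (0.00432) and Wee2 (0.0330). It also brought the number of genes called from 3277 to 1660; in that fit the lone F3 animal is assumed to vary like the other groups. Without all oocytes with contradictory labels the call of Ccnb2 ended as well (adjusted p = 0.149 by edgeR).

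The oocytes with a contradictory generation can be read against both labels. The 5 kept oocytes of animal 22, titled F3 and labelled F2, had 1347 to 2090 CPM of Ccnb1 and 1146 to 2107 CPM of Wee2. The 8 oocytes titled F2 and labelled F3 had 626 to 1056 CPM of Ccnb1 and 718 to 925 CPM of Wee2. Their ranges did not overlap in either gene. For Ccnb1 the other 12 oocytes of F2 HFHS+Veh had 803 to 1488 CPM and the other 8 of F3 HFHS+Veh 1414 to 2128 CPM. Mos had 146 to 320.4 CPM (median 194) in animal 22 and 231 to 582 CPM (median 357) in the other 8 of F3 HFHS+Veh. It had 93.2 to 993 CPM (median 336) in the 8 titled F2 and labelled F3, and 4.71 to 1140 CPM (median 806) in the other 12 of F2 HFHS+Veh, so for Mos all these ranges overlapped. Which label holds was not tested.

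**Figure D3:**
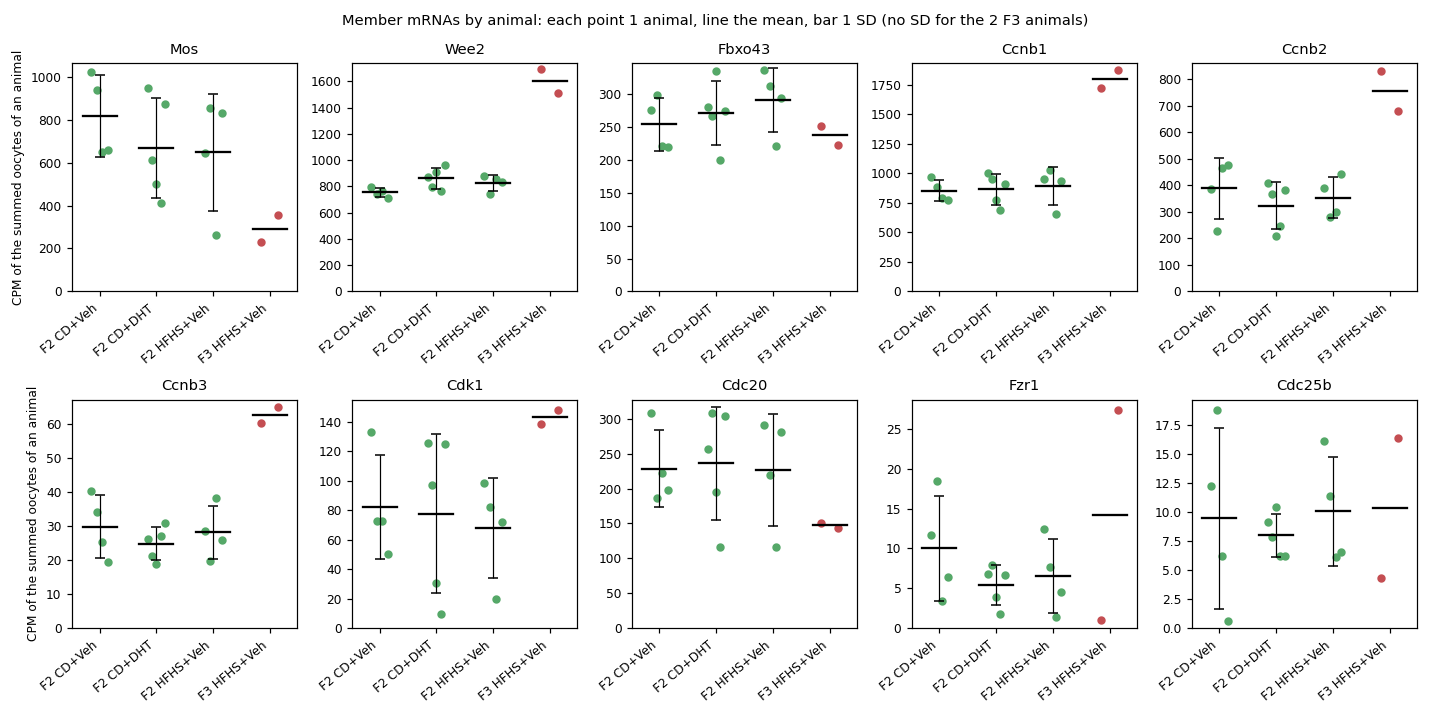
CPM of each member in the summed oocytes of each animal, for 13 F2 animals (green) and 2 F3 animals (red); lines are group means and bars 1 SD, drawn for F2 only. The 3 F2 groups overlap in all 10 panels, and the F3 animals lie above the F2 HFHS+Veh animals for Wee2, Ccnb1, Ccnb2, Ccnb3 and Cdk1.

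Genes that act with the members were read from 5 lists. In the cascade below MOS, 2 of 8 tested rose and 1 fell, beside 24.6% of all genes called either way. Among them the ribosomal S6 kinase Rps6ka3 rose in F3 HFHS+Veh animals against F2 (57.0 and 64.7 CPM against 32.8 to 44.0 CPM; log2 fold 0.80, adjusted p = 0.0468 by edgeR). Around CDK1, 6 of 11 tested fell and 0 rose, beside 14.7% of all genes called lower. The number called lower was 3 of 11 by limma-voom, which called 480 of 13314 genes lower. Fewer were also called lower without F3 animal 22 or 26, fits that leave 1 F3 animal. The list's median log2 fold was then -2.03 and -1.61, beside -0.73 and -1.06 for all genes. Among the 6 that fell in the main fit were the CDK subunits Cks1b (224.6 to 425 CPM against 1054 to 1299) and Cks2 (45.6 to 74.9 against 240.4 to 431). The CDK-activating kinase subunit Mnat1, the phosphatase Cdc25a and the inhibitory kinase Pkmyt1 fell too. The sixth was Cdc25c, at 0 in both F3 animals, where a count of 0 allows up to 0.716 and 0.864 CPM, and at 0.418 to 2.59 CPM in F2.

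In the list of the Greatwall kinase pathway and the phosphatase PP2A, 3 of 14 rose and 1 fell. Those 4 of 14 are near the 24.6% of all genes, so the count is not a result about the list. Mastl, the Greatwall kinase, had 1667 and 1791 CPM in the F3 animals and 263 to 358 CPM in the F2 animals (log2 fold 2.60, SE 0.31, adjusted p = 1.51e-05 by edgeR). Its substrate Arpp19 stood at 660 and 744 CPM against 153 to 210.2 CPM (log2 fold 2.15, SE 0.24), and the PP2A scaffold Ppp2r1b also rose (1.19). The PP2A subunit Ppp2r5b fell, at 0 in both F3 animals and 1.09 to 2.51 CPM in F2. A count of 0 there allows up to 0.716 and 0.864 CPM, near the lowest F2 animal.

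Of the genes of release, 3 of 12 rose and 1 fell, again beside the 24.6% of all genes. Ppp3r1, the regulatory subunit of the calcium-dependent phosphatase calcineurin, stood at 1745 and 1762 CPM against 133 to 286 CPM (log2 fold 3.26, SE 0.31, adjusted p = 2.24e-06 by edgeR). Cul1, the cullin of the ligase that marks EMI2 for destruction, rose by 1.35 on the log2 scale and the calcium channel Itpr1 by 1.01. Camk2g, the kinase that calcium activates in the egg to trigger release, fell (log2 fold -1.52). Of the 12 tested genes that translate stored mRNAs, 4 rose and 1 fell, beside 24.6% of all genes called either way. By limma-voom 3 rose and 0 fell, beside 10.6% of all genes. Without F3 animal 22, which leaves 1 F3 animal, fewer were called higher and more lower. The list's median log2 fold was then -0.23, beside -0.73 for all genes. The 4 that rose were the cap-binding Eif4e (1.77), Cpeb4 (1.20), the poly(A) polymerase Papd4 (0.78) and Dazl (0.69). The median log2 fold was 0.42 in the cascade, -1.67 around CDK1, -0.14 in the Greatwall list and 0.02 for release, -0.07 for translation and 1.17 for the members, beside -0.50 for all genes. The cascade's median was -0.68 without F3 animal 22, and those of the Greatwall list and of translation lay above 0 with DESeq2-type size factors (0.01 and 0.10). Genes detected and cumulus markers moved with the generation, as given above, and their part in these differences was not tested.

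**Figure D4:**
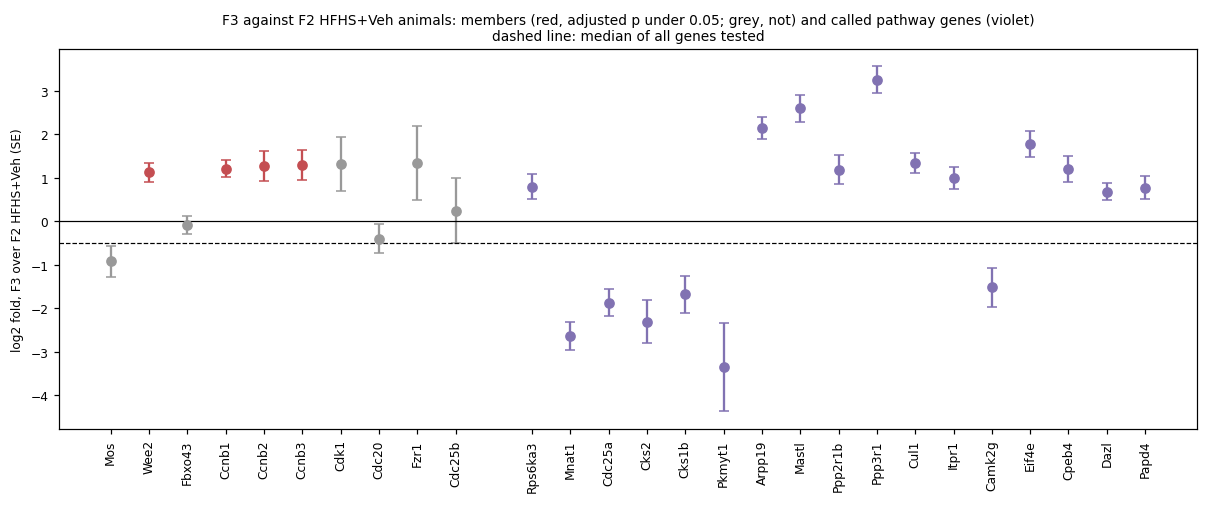
Log2 fold of F3 over F2 HFHS+Veh animals with its standard error, for the 10 members (red if past the threshold, grey if not) and for called genes of the other lists that the text names, at an F2 median of at least 10 CPM (violet); the dashed line is the median of all genes at -0.50. Ccnb1, Ccnb2, Ccnb3 and Wee2 lie near 1.2, Mos at -0.92, and Mastl and Ppp3r1 above all members.

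Within F2, the exposure of the F0 female was tested against CD+Veh over animals. Both comparisons share the 4 CD+Veh animals. No member passed in either comparison, and no gene of 11962 was called in either (0%; 220 and 118 genes had an unadjusted p under 0.05 in CD+DHT and HFHS+Veh by edgeR, and DESeq2 called 2 and 1). For no member did the animals of the groups lie apart, beside 0.936% of all genes in CD+DHT and 1.15% in HFHS+Veh.

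Mos stood at 1024, 938, 652 and 657 CPM in CD+Veh animals 2, 3, 13 and 14. In CD+DHT animals 6, 7, 8, 9 and 17 it stood at 947, 612, 499, 410.5 and 871 CPM, and in HFHS+Veh animals 4, 5, 10 and 19 at 647, 853, 264 and 832 CPM. The groups overlapped, with log2 folds of -0.15 (SE 0.26) and -0.30 (SE 0.28) and adjusted p near 1 by edgeR. Wee2 stood at 799, 741, 765 and 711 CPM in CD+Veh, at 874, 795, 912, 763.5 and 963 in CD+DHT and at 878, 742, 857 and 834 in HFHS+Veh. Its log2 folds were 0.33 (SE 0.18, unadjusted p = 0.0974 by edgeR) and 0.20 (SE 0.19). It varied least of all members, with a standard deviation of 0.13 between animal means on the log2(CPM + 1) scale.

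Ccnb1 had a mean of 852 ± 90.6 CPM (SD, n = 4) in CD+Veh, 864 ± 130.4 (SD, n = 5) in CD+DHT and 893 ± 161 (SD, n = 4) in HFHS+Veh, with log2 folds of 0.15 and 0.11. For Ccnb2 they were 388 ± 114, 322 ± 89.0 and 353 ± 76.3 CPM, with log2 folds of -0.22 and -0.14. Fbxo43 had 254 ± 39.8, 271 ± 48.3 and 291 ± 49.3 CPM, with log2 folds of 0.25 (SE 0.16) and 0.26 (SE 0.16). Cdc20 had 228 ± 55.1, 236 ± 81.2 and 227 ± 80.6 CPM, with log2 folds of 0.14 and 0.01. Ccnb3 had log2 folds of -0.08 and 0.05, Cdc25b of 0.04 and 0.25 and Fzr1 of -0.69 (SE 0.53) and -0.52 (SE 0.56). The members' median log2 fold was 0.02 in CD+DHT and 0.03 in HFHS+Veh, beside -0.01 and 0.02 for all genes.

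Cdk1 was the least even member among animals. It stood at 133, 72.5, 72.7 and 50.4 CPM in CD+Veh animals 2, 3, 13 and 14. In CD+DHT animals 6, 7, 8, 9 and 17 it stood at 126, 97.3, 30.9, 9.65 and 125 CPM, with animals 8 and 9 below all controls. In HFHS+Veh animals 4, 5, 10 and 19 it stood at 98.5, 82.0, 20.03 and 71.9 CPM, with animal 10 lowest. Log2 folds were -0.00 (SE 0.52) and -0.25 (SE 0.55) from the summed counts. With mean log values per animal, where each oocyte counts alike, they were -1.75 (unadjusted p = 0.0286, adjusted p = 0.688 by limma) and -1.04 (adjusted p = 0.999 by limma), beside all-gene medians of -0.31 and -0.16. The standard deviation between animal means was 1.45 on the log2(CPM + 1) scale for Cdk1, 0.66 for Mos, 0.44 for Ccnb2 and 0.21 for Ccnb1. Between oocytes of an animal it was 1.67 for Cdk1, 1.10 for Mos, 0.76 for Ccnb2 and 0.19 for Ccnb1.

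No gene of the other 5 lists passed in F2 (57 tested in each comparison). Smallest in unadjusted p with CD+DHT were Ccna2, cyclin A2 (431 against 355 CPM in median, log2 fold 0.36, p = 0.0285 by edgeR), and the kinase Wee1 (2.12 against 5.16 CPM, p = 0.0385). Of the other lists they included Map2k1, Ppp2ca and Ppp2r5d, Skp1a and Cul1, and Cpeb4 and Eif4e1b, with p from 0.0886 to 0.464. With HFHS+Veh they included Rps6ka3, Ccna2 and Wee1, Ppp2r1b and Ppp2r2a, Ppp3cb and Btrc, and Ybx2, with p from 0.104 to 0.279 by edgeR. All had adjusted p near 1 by edgeR.

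The 5 F2 HFHS+DHT oocytes, which name no animal and whose characteristics give vehicle, are given without comparison. Their Ccnb1 was 886, 844, 860.0, 1069 and 954 CPM and their Mos 489, 721, 985, 991 and 411 CPM. Both lay within the range of the other F2 oocytes.

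In F1 and F3, group medians over oocytes were compared with those of CD+Veh, without a test. In F1 CD+DHT, 17.7% of 5993 genes were past 1.5-fold. Ccnb3 (14.19 against 29.9 CPM) and Cdc25b (3.08 against 10.9) were past it, both lower, of 9 members reaching 10 CPM. Mos was at a log2 ratio of 0.12 and Cdk1 at -0.53. Both depended on how oocytes were averaged: Mos was at 0.95 with the mean of log2(CPM + 1) and -0.27 with pooled counts, and Cdk1 at 0.54 and -0.59. The CD+Veh oocytes include 7 and 8, at 17.35 and 20.7 CPM of Mos with no Cdk1 count, and their part was not tested. In F1 HFHS+Veh, 13.7% of 5987 genes were past it and of 9 members only Cdc25b was (6.25 against 10.9 CPM). Mos and Ccnb1, at 1132 and 939 CPM, were at log2 ratios of 0.30 and 0.04 there. With the mean of log2(CPM + 1), Mos (1.16) and Cdk1 (0.71) were past the fold, against the same CD+Veh oocytes.

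F1 HFHS+DHT had the most members past the fold, 5 of 9, all lower, beside 30% of 5884 genes. Mos ran from 293 to 1488 CPM with a median of 591, against 17.35 to 1535 CPM with a median of 917 in CD+Veh. Cdc20 had a median of 187 CPM against 334, Cdk1 35.7 against 77.2 and Cdc25b 1.62 against 10.9. Ccnb3 had a log2 ratio of -0.62. The ranges overlapped for all 5. The members' median log2 ratio was -0.62 and that of all genes -0.14. The directions of Mos and Cdk1 depended on how oocytes were averaged: with the mean of log2(CPM + 1), Mos gave 0.44 and Cdk1 0.09. The controls again held CD+Veh oocytes 7 and 8, whose part was not tested. Median genes detected were 8227 in this group and 9644.5 in its controls, a difference whose part in the result was not tested.

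In F3 CD+DHT, 28.6% of 4922 genes were past the fold and none of 8 members was. The nearest were Cdk1 (127 against 86.6 CPM, log2 ratio 0.55) and Cdc20 (184 against 129, 0.51). With the mean of log2(CPM + 1), Cdk1 (0.98), Fbxo43 (0.74) and Cdc20 (0.61) were past it. The control mean includes F3 CD+Veh oocyte 21, with no Cdk1 or Cdc20 count and 3.23 CPM of Fbxo43. Its part in these values was not tested. Mos was at 405 and 402 CPM, a log2 ratio of 0.01. In F3 HFHS+Veh the share was 26.63% of 4742 genes, and of 8 members only Ccnb3 was past it, higher at 48.8 CPM against 16.6 (log2 ratio 1.55). It ran from 3.11 to 310 CPM in that group and from 2.51 to 83.2 CPM in its controls, and without the oocytes richest in cumulus markers the log2 ratio was 0.91. Cdk1, at 0.57, was past the fold with the mean of log2(CPM + 1), at 0.91. Oocyte 21 was among the controls there too, and its part was not tested.

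Some members moved together from oocyte to oocyte. With each group centred on its mean and without F3 CD+Veh oocyte 21, Pearson's r over 156 oocytes was 0.61 for Mos and Cdk1, 0.56 for Mos and Cdc20 and 0.56 for Cdk1 and Cdc20. Genes detected in the same library gave r of 0.63 with Cdk1, 0.54 with Mos and 0.48 with Cdc20, and their part in these pairs was not tested. For Mos and Wee2 r was 0.32 with oocyte 21 and -0.31 without it. The other oocytes low in Mos, described below, stayed in: F1 CD+Veh oocytes 7 and 8 and F2 HFHS+Veh oocyte 2 of animal 4. They had Wee2 at 1793, 1908 and 1857 CPM and no Cdk1 count. Their part in r, also in that of Mos with Cdk1, was not tested. The genes of a pair share each oocyte's library and depth, and these are descriptions with no test.

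The genes most alike to each member were taken among 5357 genes with a median of at least 10 CPM. For Mos they were the oocyte linker histone H1foo (r = 0.94, and 0.92 without oocyte 21), the growth factor Gdf9 (0.90 and 0.88) and Sec13 (0.89). All these values keep the other 3 oocytes low in Mos, described below, whose H1foo and Gdf9 lay far below their groups' medians. The part of those oocytes in r was not tested. The genes most alike to Ccnb2 were Eif2b1 (0.88 and 0.81), Ccdc69 (0.85 and 0.74) and Rbbp7 (0.84). Cdk1 was nearest to Nop56 (0.79 and 0.77), Abhd6 (0.73 and 0.71) and Oas1e (0.72), and Cdc20 to Arhgef39 (0.84 and 0.75), Cox10 (0.82) and Trim61 (0.82). Wee2 came with Nedd1 (0.89 and 0.62), Ccnb1 (0.84) and 4933411K20Rik (0.82), but r with Ccnb1 was 0.42 without oocyte 21, and Ccnb1 was then not among the first 3. Ccnb1 came with Gm13023 (0.85 and 0.57), Wee2 and 3110001I22Rik (0.83), and Fbxo43 with Rragc (0.79), Anxa7 (0.79) and G3bp2 (0.78); without oocyte 21 Dcp1a came first for Fbxo43, at 0.54. Ccnb3 had Ankrd32 at 0.48 and Dpy19l1 and Cntrl at 0.47, and without oocyte 21 Dnajb4 came first at 0.50.

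Besides oocyte 21, 3 oocytes had Mos under 0.1 of their group's median, a limit set after the values were seen. F1 CD+Veh oocytes 7 and 8 had 17.35 and 20.7 CPM of Mos, from 3 and 6 counts, where their group's median was 917 CPM. F2 HFHS+Veh oocyte 2 of animal 4 had 4.71 CPM, from 2 counts, where the median was 590.5. In all 3, Ccnb1 was above its group's median, at 1793, 1784 and 1488 CPM against 917, 917 and 951, and Wee2 was too, at 1793, 1908 and 1857 CPM. Cdk1 had no count in any of them, which allows up to 17.35, 10.33 and 7.06 CPM, beside group medians of 77.2 and 62.3. Cdc25b stood at 69.4, 58.6 and 221 CPM, against group medians of 10.9 and 8.75.

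The 3 did not agree in every cyclin: Ccnb2 was at 1157 and 1274 CPM in the F1 oocytes and at 11.8 in the F2 oocyte. Their H1foo was at 671, 307 and 160.0 CPM beside medians of 12108 and 7718, and Gdf9 at 584, 162 and 113 CPM beside 8304 and 5969. Spike-ins took 2.66%, 4.33% and 3.46% of their counts, against group medians of 0.467% and 0.0931%, and genes detected were 7544, 6612 and 5624. Cumulus markers summed to 521, 131 and 247 CPM, so these oocytes were not rich in them. The part of depth and RNA amount in this pattern was not tested.

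Members lie on GRCm38 as follows in GENCODE vM21. Mos (ENSMUSG00000078365.5) spans chr4:3870657-3872105 on the minus strand, Wee2 chr6:40439088-40466813 on the plus strand and Fbxo43 chr15:36150060-36164884 on the minus strand. Ccnb1 spans chr13:100778650-100786570 and Ccnb2 chr9:70407692-70421547, both on the minus strand. Each has an annotated pseudogene elsewhere, on chromosomes 7 and 8, so reads could be split and both levels are uncertain to that extent. Cdk1 spans chr10:69335146-69352938 and Ccnb3 chrX:6979652-7041619, on the minus strand. Cdc20 (chr4:118432901-118437352) overlaps Elovl1, Fzr1 (chr10:81366222-81378516) overlaps Mfsd12 and Cdc25b (chr2:131186949-131198497) overlaps Spef1, each on the opposite strand. Use of strand in the counting is not given in the sources used here, so reads of these pairs cannot be told apart.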

How the data were processed

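Single MII oocytes were sequenced after Smart-seq2, per the labels' protocols. The submitters' processing notes name STAR 2.4.2a, Seurat 2.0 and mm10 (GRCm38); which counting program, annotation and strand setting were applied is not given in the sources used here. Raw counts per gene symbol and RPKM values were deposited by the authors; their normalised tables were not used. Of 24582 lines, 93 (ERCC spike-ins and eGFP) were left out, and repeated symbols were summed. CPM was computed over gene counts; kept oocytes had 133654 to 16359078 counts. Limits from counts of 0 (3 counts) cover counting error only. Libraries were compared pairwise within groups: 0 pairs were identical, and chi-square over its degrees of freedom was at least 2.29, so none was merged. Where animals were named, counts were summed per animal and fitted with edgeR 4.0.16 in R 4.3.3 (TMM, filterByExpr, Benjamini-Hochberg, threshold 0.05). Alternatives were DESeq2 1.42.0, limma 3.58.1, other scalings and filters, the deposited RPKM values and leaving out each animal. No record ties animals to litters or days, so p-values measure the spread between these animals. Other groups were compared by ratios of medians at a minimum of 10 CPM, with no test. Fits and ratios were tested on simulated data. Python 3.11.15, pandas 2.3.3 and matplotlib 3.10.9 were used. Named genes were all members, the 3 genes most alike to each member (Pearson's r of log2(CPM + 1) centred on group means), and for each other list the 2 with the smallest p plus any that passed; some of these are not reported here. Members, lists and rules were chosen with earlier results of these data known. The comparisons between generations, the alternative without cumulus-rich oocytes and the description of oocytes low in Mos were added after seeing the levels.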

Additional observations from a re-analysis of the deposited data

Results flagged for a closer look

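Dixon's test at 95%, on groups of 4 to 10 values, was run on 60 sets of member levels, of which 3 held a sample far from the others, so about the number chance gives (1 in 20). In F1 CD+Veh, 1 of 10 oocytes had 18.96 CPM of Fzr1, the next having 9.63. In F1 CD+DHT, 1 of 8 oocytes had 29.9 CPM of Fzr1, the next having 15.1, and 1 had 315 CPM of Ccnb2, the nearest having 501 CPM. The oocytes low in Mos in F1 CD+Veh were a pair and did not meet the test.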

How the results depend on the processing

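No paired analysis was possible because numbers shared between F1 or F3 groups name oocytes in comparisons that have no test, and the animals of the tested groups share no number. Of 998 alternatives, 81 of 103 counts of genes stayed within 1.5 times the reported count. Of the log2 folds of members, 506 of 550 kept their direction and side of the threshold, as did 337 of 345 log2 ratios of medians. The causes of the differences below were not tested.

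In F2, DESeq2 called 2 genes for CD+DHT and 1 for HFHS+Veh, and every other setting run called 0. For CD+DHT, limma on mean log values per animal gave log2 folds of -1.75 for Cdk1, -0.52 for Mos, -0.41 for Ccnb2, -0.021 for Fbxo43, -0.023 for Ccnb1, -0.11 for Cdc20 and -0.57 for Cdc25b, with the median of all genes at -0.31, and the stricter oocyte filter gave 0.022 for Cdk1. For HFHS+Veh, leaving out oocytes with contradictory labels gave 0.043 for Mos, 0.22 for Cdk1, 0.12 for Fzr1 and -0.47 for Ccnb3. Limma-voom gave -0.050 for Ccnb3, and mean log values gave -0.44 for Ccnb3 and -0.063 for Cdc20.

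Leaving out each animal in turn gave, for CD+DHT, -0.20 to 0.070 for Ccnb3, -0.25 to 0.28 for Cdk1, -0.031 to 0.27 for Cdc20 and -0.34 to 0.44 for Cdc25b. For HFHS+Veh it gave -0.39 to 0.035 for Ccnb2, -0.24 to 0.23 for Ccnb3, -0.46 to 0.034 for Cdk1, -0.16 to 0.19 for Cdc20 and -0.13 to 0.65 for Cdc25b. For F3 against F2 HFHS+Veh it gave 1660 to 3414 genes called, -0.22 to 0.036 for Fbxo43, -2.46 to 2.29 for Fzr1 and -0.96 to 0.89 for Cdc25b. There limma-voom called 1411 genes and leaving out contradictory labels 1864, and Fbxo43 was 0.070 with RLE size factors and with DESeq2.

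Counts past 1.5-fold followed the minimum level. With a minimum of 1 CPM they were 3076 (F1 CD+DHT), 2823 (F1 HFHS+Veh), 3933 (F1 HFHS+DHT), 3037 (F3 CD+DHT), 2804 (F3 HFHS+Veh), 3182 (F2 against F1 CD+Veh), 6580 (F3 against F1 CD+Veh) and 7071 (F3 against F2 CD+Veh). With the deposited RPKM at a minimum of 10 the first 6 were 438, 382, 1021, 675, 605 and 766. The mean of log2(CPM + 1) gave 1674 in F1 CD+DHT and 1494 in F1 HFHS+Veh, and pooled counts 895 in F1 HFHS+DHT. Of the log2 ratios past 1.5-fold, those that turned were Cdc25b in F1 HFHS+Veh (0.16 with the stricter filter), Mos (0.44) and Cdk1 (0.092) in F1 HFHS+DHT with the mean of logs, and Ccnb3 in F3 against F2 CD+Veh (0.0095 pooled).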
